A study of Mus musculus with 24 samples.

Results

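Genes of the ATF4 stress response and of amino acid supply were followed in activated mouse T cells. The set holds 42 genes taken by symbol: the transcription factor Atf4, its partner factors, its feedback targets, enzymes that make amino acids, amino acid transporters and cytosolic tRNA synthetases. All 42 were among the 48526 genes of the count files, and all 42 passed the filter on low counts that left 14560 genes for testing. The rule uses gene symbols and no measured value, but the set was proposed with earlier results of these data known.

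ATF4 is the main effector of the integrated stress response. Kinases that sense amino acid shortage (GCN2), unfolded protein in the endoplasmic reticulum (PERK), double-stranded RNA or heme shortage phosphorylate the initiation factor eIF2, which lowers general protein synthesis while the Atf4 mRNA is translated better. ATF4 pairs with C/EBP family factors at composite elements and raises genes for amino acid synthesis, uptake and tRNA charging. With CHOP (Ddit3) it raises genes of the later stress response. Dividing T cells draw heavily on imported amino acids and on serine and one-carbon metabolism.

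The cells came from spleens of OT-1 mice, a strain in which a transgenic T cell receptor makes the CD8+ T cells recognise an ovalbumin (OVA) peptide. Whole splenocytes were cultured in RPMI medium with glutamine, serum, pyruvate and beta-mercaptoethanol, and T cells were then enriched by removing other cells on magnetic beads. The 6 groups, with 4 libraries each, carry the labels OVA, TLR2 or TLR7 at 24 h or 72 h. The shared protocol has peptide in the cultures at 2 µg/mL, with the Toll-like receptor agonists added 1 h earlier, so OVA is read here as the group without agonist. Pam3CSK4 (300 ng/mL), a TLR2 ligand, and both gardiquimod (3 µg/mL) and R848 (10 µg/mL), which act on TLR7, are listed, and the labels do not say which of the latter was used. Neither mouse age nor whether replicates came from separate mice is given, so the p-values cover only sample-to-sample spread, part or all of which may be technical.

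Library totals ranged from 10.5 M to 27.1 M counts, and 5 libraries (OVA 24 h replicate 4, TLR2 24 h replicate 4, TLR7 24 h replicate 2 and TLR7 72 h replicates 1 and 2) had at most 11.7 M. Along the first principal component of the other genes (59.9% of the variance), 8 libraries lay between the 24 h and 72 h ends. From 24 h they were replicates 1 and 3 of OVA with 3 and 4 of TLR7, and from 72 h replicates 1, 3 and 4 of TLR2 with 4 of OVA. These 8 are called the middle libraries below, the other 16 the distinct ones, and results are given with and without the 8. That component runs with time, so leaving the 8 out selects libraries along the time difference and narrows the spread within groups. The adjusted p-values without them are therefore too small as tests of time. They can be too small between agonists as well, because all 6 groups share 1 estimate of the spread. They are given as a description beside those from all libraries. The groups are used as labelled throughout. Whether the harvest times or labels of these 8 are as given was not tested, which bears on every comparison at 24 h, at 72 h and between the times. Leaving them out keeps 1 library of TLR2 at 72 h, which is then assumed to vary like the other groups, 2 of OVA and 2 of TLR7 at 24 h. All 8 T cell markers were detected in every group, summing to between 1540.0 and 4733 CPM (counts per 1000000, scaled by TMM, not per length and so not comparable between genes). B cell markers summed to between 134 and 848 CPM and were lowest in TLR7 at 72 h (190 ± 63.6, SD, n = 4). Macrophage markers reached 58.6 CPM in OVA 24 h replicate 2 and 64.1 in OVA 72 h replicate 3, and neutrophil markers 107 and 21.2 CPM there. In bulk RNA, fewer cells of a type and less RNA per cell cannot be told apart.

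The promoters were searched for the core of the C/EBP-ATF response element, TGATGNAA on either strand, in windows from 250 bases before to 50 after each RefSeq start site. Of the 33 members with a promoter entry 14 held it (42.4%), against 4.51% of the 27025 genes in the table. A gene with several windows was counted if any of them held it, and Vldlr and Jdp2 also had windows without it. The exact form TGATGCAA was in 10 of the 33 (30.3%) and in 1.03% of all genes. Windows were chosen among 14 set genes and the members past the threshold between agonists. Of these, the entries of Atf4, Ddit3, Sesn2, Psat1, Phgdh, Shmt2, Mthfd2, Slc3a2, Cebpb and Ppp1r15a held no match. Slc7a5, Slc1a5 and Aldh1l2 had no promoter entry. The 6 windows below are those that hold the element. Each runs 5′ to 3′ on the gene's own strand, with the matches in capitals. In GRCm38.p6 they lie at Trib3 on chromosome 2 from 152344011 to 152344310 (minus strand), Chac1 on chromosome 2 from 119350992 to 119351291 (plus strand), Nupr1 on chromosome 7 from 126625421 to 126625720 (minus strand), Vldlr on chromosome 19 from 27216770 to 27217069 (plus strand), Asns on chromosome 6 from 7693160 to 7693459 (minus strand) and Slc7a11 on chromosome 3 from 50443564 to 50443863 (minus strand).
Trib3: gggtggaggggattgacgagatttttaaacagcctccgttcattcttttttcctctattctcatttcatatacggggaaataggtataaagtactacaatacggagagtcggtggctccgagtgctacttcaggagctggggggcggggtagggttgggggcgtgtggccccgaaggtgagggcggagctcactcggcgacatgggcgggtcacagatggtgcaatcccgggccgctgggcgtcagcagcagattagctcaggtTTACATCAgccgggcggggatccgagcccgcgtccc
Chac1: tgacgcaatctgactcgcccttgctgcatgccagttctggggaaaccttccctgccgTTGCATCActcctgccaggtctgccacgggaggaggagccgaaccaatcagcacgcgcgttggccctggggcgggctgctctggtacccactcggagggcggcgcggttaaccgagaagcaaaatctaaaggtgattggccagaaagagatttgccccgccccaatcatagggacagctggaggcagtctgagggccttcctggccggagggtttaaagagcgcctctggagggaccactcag
Nupr1: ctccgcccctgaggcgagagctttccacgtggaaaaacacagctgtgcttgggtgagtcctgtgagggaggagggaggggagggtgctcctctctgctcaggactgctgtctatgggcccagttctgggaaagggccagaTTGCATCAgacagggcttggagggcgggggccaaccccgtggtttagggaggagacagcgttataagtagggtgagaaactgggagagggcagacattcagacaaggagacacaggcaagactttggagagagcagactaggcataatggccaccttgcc
Vldlr: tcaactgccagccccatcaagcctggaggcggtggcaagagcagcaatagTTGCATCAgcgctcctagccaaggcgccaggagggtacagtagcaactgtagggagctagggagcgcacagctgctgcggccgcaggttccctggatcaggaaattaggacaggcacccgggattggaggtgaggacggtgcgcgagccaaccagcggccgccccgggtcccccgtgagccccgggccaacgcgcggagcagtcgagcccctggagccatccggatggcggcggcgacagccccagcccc
Asns: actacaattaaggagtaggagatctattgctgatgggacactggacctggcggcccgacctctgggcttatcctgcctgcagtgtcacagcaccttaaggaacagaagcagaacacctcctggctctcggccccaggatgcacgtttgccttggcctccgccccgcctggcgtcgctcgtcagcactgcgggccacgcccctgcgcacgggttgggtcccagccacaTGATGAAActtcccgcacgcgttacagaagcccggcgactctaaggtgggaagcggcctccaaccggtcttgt
Slc7a11: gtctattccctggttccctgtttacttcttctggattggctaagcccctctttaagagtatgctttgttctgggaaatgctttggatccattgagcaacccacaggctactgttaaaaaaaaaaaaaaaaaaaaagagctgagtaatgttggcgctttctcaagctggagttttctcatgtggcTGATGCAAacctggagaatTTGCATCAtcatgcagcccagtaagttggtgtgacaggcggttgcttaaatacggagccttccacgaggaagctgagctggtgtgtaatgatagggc
Slc7a11 alone among these 6 held 2 matches, one in each orientation. The element was also found at Jdp2, Pycr1, Pck2, Aars, Gars, Yars, Iars and Tars. Among members whose 8 distinct 72 h libraries all lay above all 8 distinct 24 h libraries, 8 of 17 with an entry held it, and among the other members 6 of 16 did. A match describes these letters and shows no binding.

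The mean log2 CPM over the 42 genes was 5.54 ± 0.85 (SD, n = 4) in OVA, 4.83 ± 0.053 in TLR2 and 5.75 ± 0.75 in TLR7 at 24 h. At 72 h it was 6.49 ± 0.34 in OVA, 6.36 ± 0.22 in TLR2 and 6.70 ± 0.081 in TLR7. The wide spread of OVA and TLR7 at 24 h came with a split inside each group. OVA replicates 1 and 3 stood at 6.37 and 6.15 and replicates 2 and 4 at 4.89 and 4.73. TLR7 replicates 3 and 4 stood at 6.52 and 6.27 and replicates 1 and 2 at 5.22 and 5.00. The 4 high libraries are the middle libraries of those groups. Among the distinct libraries, all 8 at 72 h (6.14 to 6.82) lay above all 8 at 24 h (4.73 to 5.22). OVA 72 h replicate 3, the library with the macrophage markers, had the lowest of those 72 h scores, the other 7 lying between 6.64 and 6.82. The part of its other cells in that value was not tested.

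**Figure D1:**
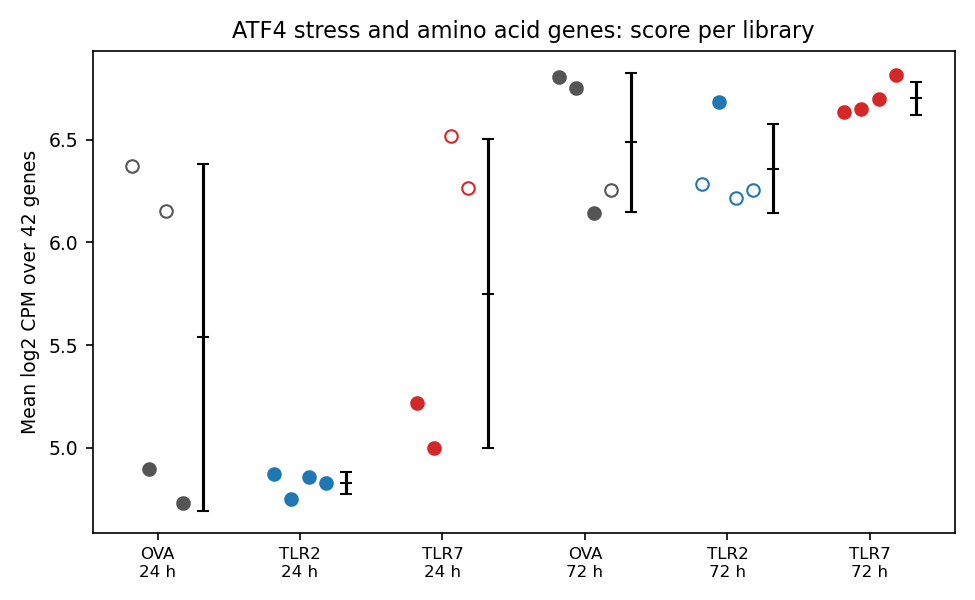
Score of the 42 genes (mean log2 CPM, vertical axis) in each of the 24 libraries by group. Filled circles are distinct libraries, open circles the 8 middle libraries, and the black bar is the mean of 4 with its SD. The distinct 24 h libraries lie between 4.73 and 5.22 and the distinct 72 h libraries between 6.14 and 6.82.

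From 24 h to 72 h, most of the stress factors and of the enzymes for asparagine, proline, alanine and cysteine rose with TLR2, and fewer of them with TLR7. With OVA only Atf5 and Cth did, a share of the members below that of all genes. Most tRNA synthetases and the serine enzymes Psat1 and Shmt2 had no call in any group. Log2 fold changes are given ± SE. With TLR2 and all libraries, 23 of 42 members rose and none fell by edgeR's quasi-likelihood test (adjusted p under 0.05), where 21.7% of all tested genes rose and 17.4% fell. With TLR7, 14 rose and 1 fell, where 19% of genes rose and 24.2% fell. With OVA, 2 rose and none fell, where 8.17% rose and 10.4% fell. The median log2 fold change over the members was 0.58 with TLR2, 0.49 with TLR7 and 0.41 with OVA, beside medians over all tested genes of -0.0065, -0.0070 and 0.087. The summed T cell markers went from 2901 to 4184 CPM with OVA, from 2239.8 to 3279 with TLR2 and from 2312 to 4263 with TLR7 between the group means, and their part in these changes was not tested.

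Without the middle libraries, 24 members rose and 1 fell with OVA (background 26.3% and 22.3%), 22 rose and none fell with TLR2 (24% and 19.4%), and 26 rose and 1 fell with TLR7 (26.7% and 25.4%). The member medians were then 0.68, 0.92 and 0.79. A group of 20 members rose in all 3 comparisons: Atf5, Ddit3, Nupr1, Jdp2, Trib3, Sesn2, Chac1, Aldh1l2, Asns, Pycr1, Aldh18a1, Gpt2, Cth, Pck2, Slc7a5, Slc7a3, Sars, Cars, Vldlr and Stc2. Of all genes in that fit 17.1% rose in all 3. With all libraries, only Cth rose in all 3, against 2.07% of genes, and its OVA call was lost in 8 of 17 alternatives. Without the 5 shallow libraries the counts were 20 with TLR2 and 0 with OVA and with TLR7 (10 members had an unadjusted p under 0.05 with TLR7 and 5 with OVA by edgeR). Of all 14949 genes in that fit, 2847 were called with TLR2, 0 with OVA and 5 with TLR7.

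**Figure D2:**
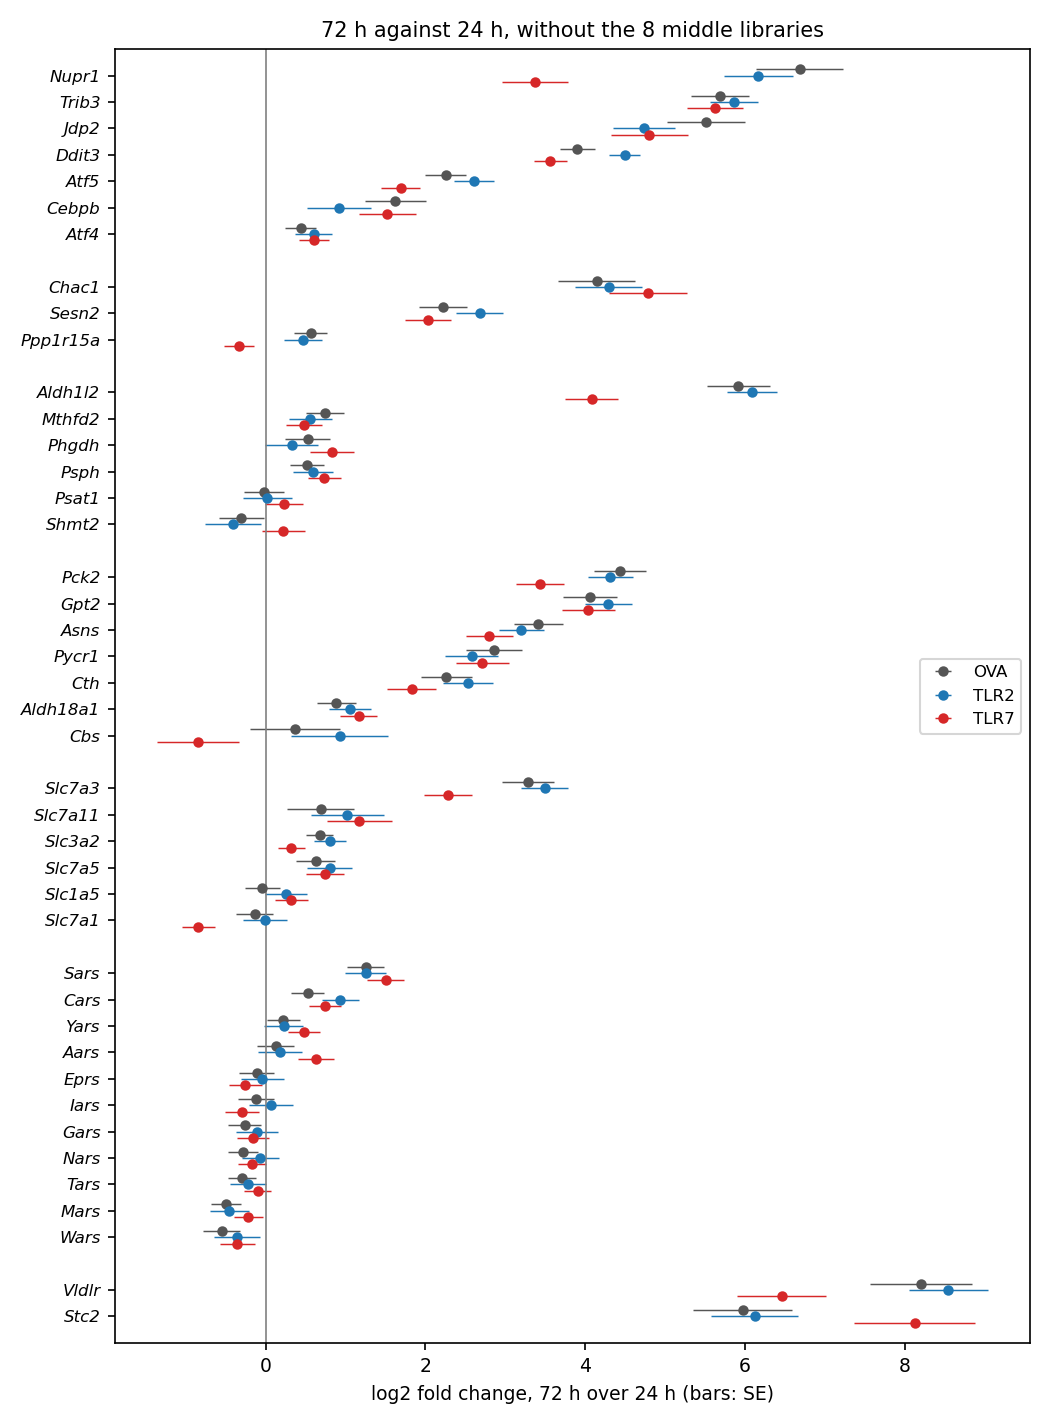
Log2 fold change from 24 h to 72 h (horizontal axis) of each of the 42 genes with OVA, TLR2 and TLR7, without the 8 middle libraries, with bars for the SE. Genes are grouped by role, from transcription factors at the top to other targets at the bottom. With OVA and TLR2, Vldlr, Nupr1, Stc2, Aldh1l2 and Trib3 lie farthest to the right, with TLR7 Stc2, Vldlr and Trib3, and most tRNA synthetases lie near 0.

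At 24 h Trib3, a pseudokinase that binds ATF4 and CHOP and restrains them, was measured at 66.9, 2.23, 85.8 and 2.65 CPM in OVA replicates 1 to 4, 2.09, 1.63, 2.08 and 1.79 in TLR2 and 3.87, 2.77, 79.2 and 57.5 in TLR7. At 72 h the Trib3 values were 170.1, 109, 84.96 and 56.6 CPM in OVA, 58.8, 109, 54.6 and 46.4 in TLR2 and 182, 163, 132 and 187 in TLR7. Every distinct 24 h library was at or below 3.87 CPM and every distinct 72 h library at or above 85.0, with the middle libraries of both times between 46.4 and 85.8. Trib3 rose by 5.14 ± 1.08, adjusted p = 0.00778 (log2) with TLR2. With OVA the value was 1.41 ± 0.89, adjusted p = 0.231, and without the middle libraries 5.68 ± 0.36, adjusted p = 6.71e-08. With TLR7 it was 2.20 ± 0.91, adjusted p = 0.0549, although all 4 libraries at 72 h were above all 4 at 24 h, and 5.62 ± 0.35, adjusted p = 3.05e-08 without the middle libraries.

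At 24 h Ddit3, which encodes the C/EBP family factor CHOP, was measured at 46.4, 5.09, 37.95 and 5.21 CPM in OVA replicates 1 to 4, 3.51, 3.12, 3.30 and 3.58 in TLR2 and 6.59, 5.44, 52.02 and 40.5 in TLR7. At 72 h the Ddit3 values were 91.5, 73.1, 63.6 and 31.2 CPM in OVA, 41.96, 74.5, 37.3 and 34.3 in TLR2 and 74.4, 70.2, 72.6 and 67.8 in TLR7. The distinct 24 h libraries lay between 3.12 and 6.59 CPM and the distinct 72 h libraries between 63.6 and 91.5, with no overlap. Ddit3 rose by 3.80 ± 0.72, adjusted p = 0.00778 (log2) with TLR2, and by 3.90 ± 0.22, adjusted p = 3.33e-08 with OVA and 3.56 ± 0.21, adjusted p = 2.30e-08 with TLR7 without the middle libraries. With all libraries, OVA gave 1.45 ± 0.64, adjusted p = 0.100 and TLR7 1.44 ± 0.64, adjusted p = 0.0737. Ddit3 overlaps another protein-coding entry of the same name on its own strand, and its estimated counts were not whole in 3 of 24 libraries. It also overlaps Mars and Gm4189 on the opposite strand, and whether counting used the strand is not stated in the labels. Reads of Aars, Atf5, Cars, Cebpb, Jdp2, Pck2, Ppp1r15a, Psph, Shmt2 and Yars, which also overlap annotated genes on the opposite strand, are uncertain in the same way, and Aars also overlaps Exosc6 on its own strand.

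At 24 h Atf4 was measured at 549, 507, 528 and 409 CPM in OVA replicates 1 to 4, 429, 418, 440.0 and 489.9 in TLR2 and 502, 455, 569 and 606 in TLR7. At 72 h the Atf4 values were 731, 645, 455 and 480.0 CPM in OVA, 544, 662, 551 and 608 in TLR2 and 721, 697, 742 and 743 in TLR7. Atf4 ran only from 409 to 743 CPM over all 24 libraries, and OVA 72 h replicates 3 and 4 lay inside the 24 h range. The Atf4 difference was 0.41 ± 0.14, adjusted p = 0.0299 (log2) with TLR2, 0.44 ± 0.14, adjusted p = 0.0176 with TLR7 and 0.21 ± 0.14, adjusted p = 0.256 with OVA. These are mRNA levels, and the protein was not measured.

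**Figure D3:**
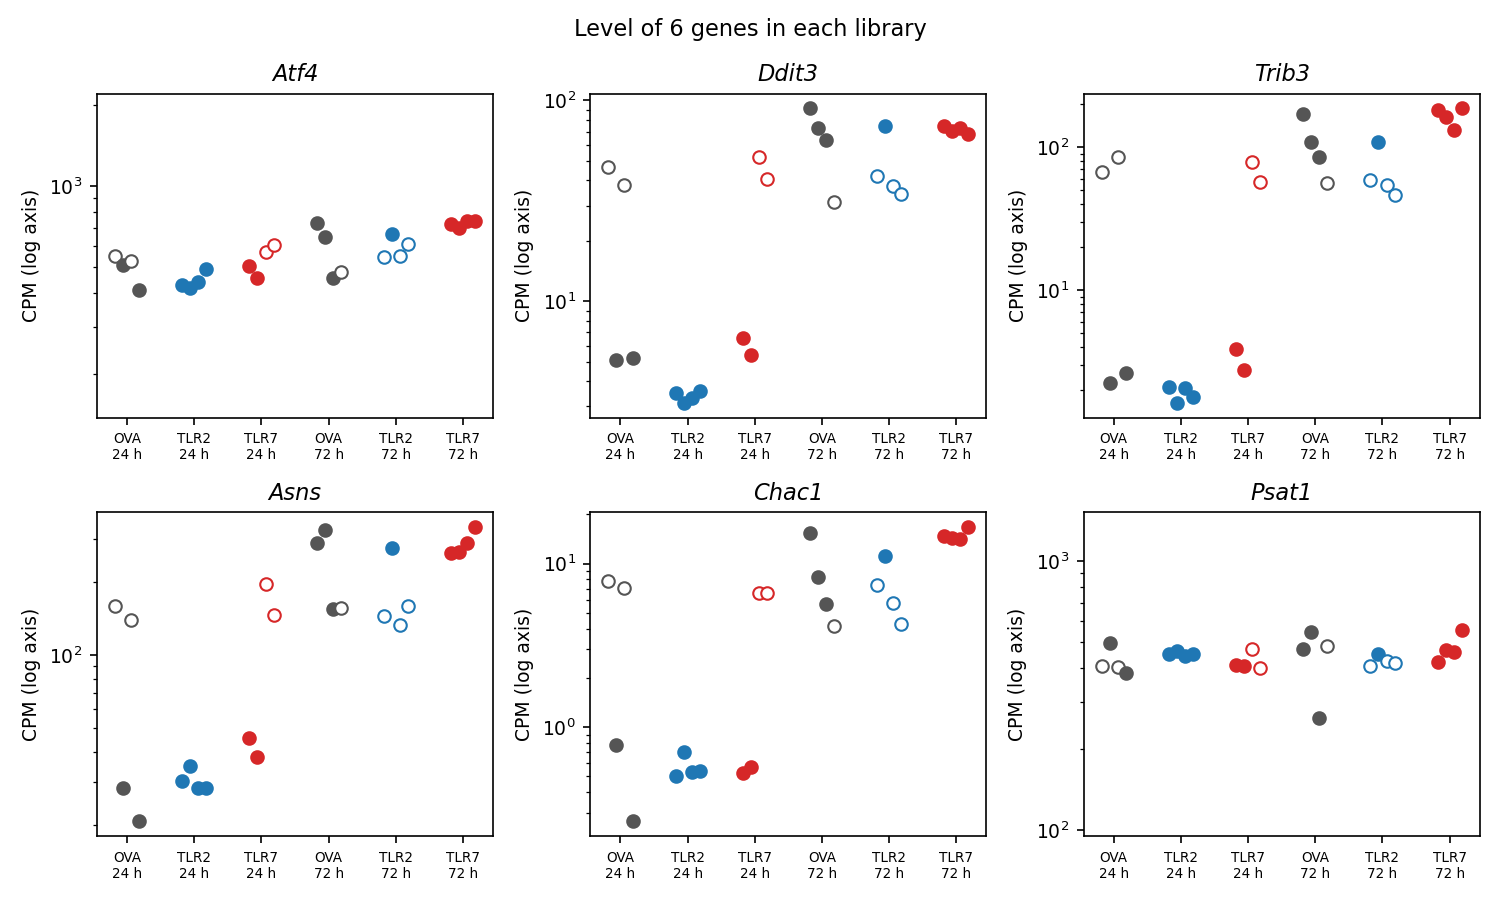
CPM (log axis) of Atf4, Ddit3, Trib3, Asns, Chac1 and Psat1 in each library by group. Filled circles are distinct libraries and open circles the 8 middle libraries. Trib3, Ddit3, Asns and Chac1 form a low tier in the distinct 24 h libraries and a high tier at 72 h, and Psat1 stays between 261 and 555 CPM.

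Of the other partner factors, Nupr1, a small stress-induced chromatin protein, stood at 15.5, 0.364, 7.38 and 0.0884 CPM in OVA replicates 1 to 4, 0.167, 0.352, 0.285 and 0.358 in TLR2 and 2.46, 1.14, 21.1 and 8.15 in TLR7 at 24 h. At 72 h Nupr1 lay between 14.1 and 30.9 CPM in the distinct libraries. The distinct TLR7 libraries, replicates 1 and 2, were the highest of the 8 at 24 h. Nupr1 rose by 5.47 ± 1.08, adjusted p = 0.00778 (log2) with TLR2 and, without the middle libraries, by 6.69 ± 0.54 with OVA and 3.37 ± 0.41 with TLR7. Jdp2, a bZIP repressor that pairs with CHOP and ATF factors, had a median of 0.357 CPM (lowest 0.0954, highest 0.543) in the 8 distinct 24 h libraries and 10.1 CPM (lowest 6.27, highest 16.9) in the 8 distinct 72 h libraries. It rose by 4.12 ± 1.03 with TLR2, adjusted p = 0.00914. Atf5, a close relative of Atf4 under the same translational control, had a median of 8.95 CPM (lowest 6.56, highest 11.3) in the 8 distinct 24 h libraries and 35.1 CPM (lowest 27.9, highest 50.5) in the 8 distinct 72 h libraries. It rose with TLR2 (1.99 ± 0.42, adjusted p = 0.00778) and with OVA (1.17 ± 0.41, adjusted p = 0.0490), and the TLR7 value was 0.57 ± 0.40, adjusted p = 0.249. The OVA call was lost in 11 of 17 alternatives (adjusted p from 5.54e-06 to 0.183), among them without OVA 24 h replicate 2, 3 or 4 and without OVA 72 h replicate 1, 2 or 3. Cebpb, an ATF4 dimer partner, rose with TLR7 (1.38 ± 0.32, adjusted p = 0.00318) while the TLR2 value was 0.45 ± 0.32, adjusted p = 0.265 with all libraries. Its levels were low, from 0.877 to 5.87 CPM.

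Chac1, which degrades glutathione and is a late target of the CHOP branch, was measured at 7.79, 0.772, 7.10 and 0.265 CPM in OVA replicates 1 to 4, 0.501, 0.704, 0.529 and 0.537 in TLR2 and 0.527, 0.572, 6.57 and 6.63 in TLR7 at 24 h. At 72 h its values were 15.4, 8.32, 5.64 and 4.14 CPM in OVA, 7.44, 11.1, 5.76 and 4.24 in TLR2 and 14.8, 14.3, 14.2 and 16.8 in TLR7. All 4 TLR7 libraries at 72 h lay above all 4 at 24 h, and Chac1 rose there (lost in 7 of 17 alternatives) by 2.04 ± 0.76, adjusted p = 0.0358 and with TLR2 by 3.63 ± 0.86, adjusted p = 0.00802. Sesn2, a leucine-binding protein that restrains mTORC1, had a median of 12.97 CPM (lowest 10.8, highest 23.7) in the 8 distinct 24 h libraries and 85.2 CPM (lowest 40.2, highest 98.3) in the 8 distinct 72 h libraries. It rose with TLR2 (2.09 ± 0.41, adjusted p = 0.00778) and TLR7 (1.38 ± 0.40, adjusted p = 0.0110). Ppp1r15a encodes GADD34, the phosphatase subunit that reverses eIF2 phosphorylation. It rose with TLR2 (0.44 ± 0.17, adjusted p = 0.0453), but the TLR2 value was 0.47 ± 0.24, adjusted p = 0.128 without the middle libraries. The TLR7 value was -0.31 ± 0.17, adjusted p = 0.135, and OVA passed only without the middle libraries (0.56 ± 0.21, adjusted p = 0.0332). Its median was 69.2 CPM (lowest 56.1, highest 136) in the 8 distinct 24 h libraries and 91.4 CPM (lowest 81.02, highest 124) in the 8 distinct 72 h libraries, and these ranges overlap.

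Of the 6 serine and one-carbon enzymes, Psat1 and Shmt2 had no call in any time comparison. Psat1, the aminotransferase of the serine pathway, stood at 408, 497, 403 and 383 CPM in OVA, 454, 465, 446 and 453 in TLR2 and 411, 409, 470.3 and 402 in TLR7 at 24 h. At 72 h Psat1 was at 471, 545, 261 and 486 CPM in OVA, 408, 452, 425 and 419 in TLR2 and 423, 469, 459 and 555 in TLR7. The times overlap in all 3 groups, with log2 differences of 0.061 ± 0.16 with OVA, -0.093 ± 0.16 with TLR2 and 0.17 ± 0.16 with TLR7 (lowest adjusted p = 0.382). Phgdh, which commits glycolytic carbon to serine, was at a median of 246 CPM (lowest 148, highest 285) in the 8 distinct 24 h libraries and 342 CPM (lowest 253, highest 440.4) in the 8 distinct 72 h libraries, and passed the test only with TLR7 without the middle libraries (0.83 ± 0.27, adjusted p = 0.0188). Psph, the last step to serine, rose with TLR7 (0.48 ± 0.15, adjusted p = 0.0166). Shmt2, which moves the serine carbon to folate in mitochondria, was at a median of 382 CPM in the distinct 24 h and 366 CPM in the distinct 72 h libraries, with no call in any time comparison. Mthfd2, the next mitochondrial folate enzyme, had a median of 233 CPM (lowest 187, highest 267) in the 8 distinct 24 h libraries and 338 CPM (lowest 233, highest 450.4) in the 8 distinct 72 h libraries. It passed with OVA without the middle libraries (0.74 ± 0.24, adjusted p = 0.0165).

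Aldh1l2, which ends the mitochondrial folate path by oxidising formyl-folate, had the widest change of these 6 enzymes. Its CPM values at 24 h were 16.6, 0.364, 12.2 and 0.530 in OVA, 0.543, 0.484, 0.529 and 0.626 in TLR2 and 1.45, 1.53, 18.7 and 14.1 in TLR7. At 72 h they were 26.8, 34.2, 16.02 and 13.9 in OVA, 14.7, 36.2, 12.5 and 15.4 in TLR2 and 23.9, 24.1, 27.4 and 24.5 in TLR7. Every 72 h library of every group lay above every distinct 24 h library. Aldh1l2 rose by 5.18 ± 1.01, adjusted p = 0.00778 (log2) with TLR2 and by 5.92 ± 0.40, adjusted p = 8.93e-08 with OVA without the middle libraries. It overlaps D10Wsu102e on the opposite strand, and its estimated counts were not whole in 20 of 24 libraries, as where reads are divided between genes.

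The enzymes of asparagine, proline, alanine, sulfur amino acids and mitochondrial carbon rose together with TLR2, apart from Cbs, which had no call. Asns makes asparagine and is the textbook amino acid response gene. It stood at 159, 28.4, 139 and 20.7 CPM in OVA, 30.3, 34.9, 28.4 and 28.5 in TLR2 and 45.4, 37.96, 197 and 146 in TLR7 at 24 h. At 72 h Asns was at 288, 328, 155 and 156 CPM in OVA, 144, 275, 132 and 159 in TLR2 and 263, 265, 288 and 337 in TLR7. The distinct libraries of the times did not overlap. Asns rose by 2.54 ± 0.56, adjusted p = 0.00784 with TLR2 and 1.44 ± 0.54, adjusted p = 0.0375 with TLR7, and the OVA value was 1.41 ± 0.54, adjusted p = 0.0652, or 3.41 ± 0.31, adjusted p = 7.37e-07 without the middle libraries. With TLR2, 6 of these 7 genes rose, with TLR7 5 and with OVA 1, beside 21.7%, 19% and 8.17% of all genes. Without the middle libraries it was 6 of 7 in each, beside 26.3% with OVA, 24% with TLR2 and 26.7% with TLR7.

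Pck2, the mitochondrial enzyme that makes phosphoenolpyruvate, had a median of 7.90 CPM (lowest 5.19, highest 14.6) in the 8 distinct 24 h libraries and 134 CPM (lowest 112, highest 182) in the 8 distinct 72 h libraries. Gpt2, the mitochondrial alanine transaminase, had a median of 4.41 CPM (lowest 3.40, highest 6.72) in the 8 distinct 24 h libraries and 84.3 CPM (lowest 42.6, highest 117) in the 8 distinct 72 h libraries. With TLR2 Pck2 rose by 3.74 ± 0.78 and Gpt2 by 3.55 ± 0.74 (log2, adjusted p = 0.00778 each). Pycr1, the last step to proline, had a median of 7.69 CPM (lowest 6.72, highest 13.1) in the 8 distinct 24 h libraries and 70.3 CPM (lowest 27.99, highest 85.2) in the 8 distinct 72 h libraries. The proline enzymes Pycr1 and Aldh18a1 rose by 2.22 ± 0.49 and 0.78 ± 0.22 with TLR2, and by 1.67 ± 0.48 and 0.71 ± 0.22 with TLR7. Cth, which releases cysteine from cystathionine, had a median of 12.6 CPM (lowest 8.41, highest 16.2) in the 8 distinct 24 h libraries and 56.6 CPM (lowest 34.2, highest 69.2) in the 8 distinct 72 h libraries. It rose with OVA (1.20 ± 0.39, adjusted p = 0.0402), TLR2 (1.87 ± 0.40, adjusted p = 0.00778) and TLR7 (1.00 ± 0.38, adjusted p = 0.0416). The OVA call was lost in 8 of 17 alternatives (adjusted p from 4.02e-05 to 0.174), among them without OVA 24 h replicate 2 or 4 and without OVA 72 h replicate 1, 2 or 3. Cbs, the step before Cth, stayed between 0.248 and 1.01 CPM with no call.

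The 6 transporters did not move as a block. Slc7a3, a cationic amino acid carrier, had a median of 6.33 CPM (lowest 4.15, highest 12.96) in the 8 distinct 24 h libraries and 56.7 CPM (lowest 32.99, highest 72.2) in the 8 distinct 72 h libraries. It rose by 2.78 ± 0.54, adjusted p = 0.00778 with TLR2. Slc7a5 is the large neutral amino acid carrier that T cells induce on activation, and its partner chain is Slc3a2. Slc7a5 had a median of 295 CPM (lowest 246, highest 355) in the 8 distinct 24 h libraries and 509.7 CPM (lowest 265, highest 572) in the 8 distinct 72 h libraries, and rose with TLR2 (0.56 ± 0.19, adjusted p = 0.0292) and TLR7 (0.49 ± 0.19, adjusted p = 0.0428). Slc3a2 had a median of 256 CPM (lowest 212, highest 387) in the 8 distinct 24 h libraries and 411 CPM (lowest 367, highest 465) in the 8 distinct 72 h libraries, and these ranges overlap. It rose with TLR2 (0.68 ± 0.15, adjusted p = 0.00778), and the TLR7 value was 0.14 ± 0.14, adjusted p = 0.427. Slc7a11, the cystine importer with a double match in its promoter, was low, from 1.18 to 5.42 CPM, and rose with TLR7 (1.05 ± 0.30, adjusted p = 0.0102). Its estimated counts, like those of Phgdh, were not whole in any of the 24 libraries. Slc1a5, a glutamine carrier, had no call, with values of -0.032 ± 0.14, 0.22 ± 0.14 and 0.18 ± 0.14 with OVA, TLR2 and TLR7. Slc7a1, the other cationic carrier here, fell with TLR7 (log2 difference -0.69 ± 0.16, adjusted p = 0.00276), all 4 libraries at 72 h lying below all 4 at 24 h.

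Of the 11 tRNA synthetases, which load amino acids onto their tRNAs, Sars, Cars and Aars rose in at least 1 group and 8 had no call with all libraries. Sars had a median of 226 CPM (lowest 164, highest 246) in the 8 distinct 24 h libraries and 579 CPM (lowest 396, highest 657) in the 8 distinct 72 h libraries, and rose with TLR2 (0.96 ± 0.26, adjusted p = 0.0124) and TLR7 (0.94 ± 0.26, adjusted p = 0.00831). Cars rose with TLR2 (0.62 ± 0.18, adjusted p = 0.0174) and Aars with TLR7 (0.48 ± 0.15, adjusted p = 0.0137). The other 8 (Gars, Wars, Nars, Yars, Eprs, Mars, Iars and Tars) had log2 differences from -0.37 (Wars with OVA) to 0.29 (Yars with TLR7). Without the middle libraries Mars fell with OVA (-0.50 ± 0.19, adjusted p = 0.0411), and it alone had every distinct 72 h library below every distinct 24 h library. The element TGATGNAA was present in the promoters of Gars, Yars, Iars and Tars, which had no call.

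Vldlr, a lipoprotein receptor, and Stc2, a secreted glycoprotein, are ATF4 targets outside amino acid metabolism. Vldlr was measured at 27.4, 0.227, 17.00 and 0 CPM in OVA, 0.167, 0.220, 0.0814 and 0.0895 in TLR2 and 0.264, 0.668, 30.8 and 24.6 in TLR7 at 24 h. At 72 h it was at 39.5, 65.7, 26.1 and 15.7 CPM in OVA, 24.02, 55.4, 23.96 and 24.2 in TLR2 and 36.8, 32.8, 44.4 and 30.9 in TLR7. Vldlr was at or below 0.668 CPM in the distinct 24 h libraries and at or above 15.7 CPM in all others. It rose by 7.73 ± 1.58, adjusted p = 0.00778 with TLR2, and Stc2 by 5.76 ± 1.34, adjusted p = 0.00798. Stc2 had a median of 0.0872 CPM in the distinct 24 h and 10.2 CPM in the distinct 72 h libraries. Vldlr had 3 or fewer counts in 3 libraries and Stc2 in 7, so their fitted fold changes depend on the prior count and are not bounds.

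Taking distinct libraries only, 21 of 42 members had all 8 libraries at 72 h above all 8 at 24 h, 1 (Mars) had them below and 20 overlapped, where 21.2% of all tested genes lay above and 19% below. In 19 of those 21, every middle library, whichever time it was labelled, lay above every distinct 24 h library. The median position of the middle libraries on the linear CPM scale, with 0 at the 24 h and 1 at the 72 h median, was 0.486 over the 21 (range 0.158 for Cebpb to 0.822 for Cars). Trib3 had medians of 2.16, 58.2 and 147 CPM in the distinct 24 h, middle and distinct 72 h libraries. The Asns medians were 29.4, 151 and 281 CPM. Some middle libraries labelled 24 h stood above middle libraries labelled 72 h: Ddit3 was at 46.4 and 37.95 CPM in OVA 24 h replicates 1 and 3 and at 31.2 CPM in OVA 72 h replicate 4. By the groups as labelled, 28 members with TLR2 had every 72 h library above every 24 h library and 2 had them below (27% and 24% of all tested genes). With TLR7 the counts were 19 and 6 (21.9% and 26.6%), and with OVA 1 and 0 (6.79% and 3.85%).

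At 24 h Nupr1, Aldh1l2 and Ddit3 were higher with TLR7 than with TLR2, with and without the middle libraries, but the calls were not stable. The all-library call was lost in 8 of 17 alternatives for Nupr1 and Aldh1l2 and in 9 of 17 for Ddit3. Without the middle libraries TLR7 keeps only replicates 1 and 2, and replicate 2 is shallow. With all libraries 7 members were higher and none lower, where 0.632% of genes were higher and 0.604% lower: Nupr1 (4.85 ± 1.07, adjusted p = 0.0274), Vldlr (6.56 ± 1.55), Trib3 (4.24 ± 1.04), Aldh1l2 (4.06 ± 0.98), Ddit3 (2.96 ± 0.70), Slc3a2 (0.70 ± 0.15, adjusted p = 0.0227) and Ppp1r15a (0.69 ± 0.17). The adjusted p of the 5 without one here lay between 0.0401 (Ddit3) and 0.0472 (Trib3). The median over the members was 0.40, beside 0.016 over all genes, and 13 members had every TLR7 library above every TLR2 library (5.5% of all genes did) and none below (8.51%). All 4 TLR2 libraries at 24 h are distinct ones, whereas 2 of the 4 TLR7 libraries are middle ones. Without the middle libraries 3 members were higher and none lower (background 0.487% and 0.803%): Nupr1 (2.77 ± 0.45, adjusted p = 0.00944), Aldh1l2 (1.51 ± 0.34, adjusted p = 0.0435) and Ddit3 (0.90 ± 0.19, adjusted p = 0.0262). Trib3 then gave 0.88 ± 0.31, adjusted p = 0.232, Vldlr 1.51 ± 0.76, adjusted p = 0.466, Ppp1r15a 0.78 ± 0.19, adjusted p = 0.0548 and Slc3a2 0.59 ± 0.16, adjusted p = 0.0891. Without the 5 shallow libraries no member was called by edgeR, nor any other of the 14949 genes tested, with 22 members at an unadjusted p under 0.05. The 7 calls also went to 0 when any 1 TLR2 library or TLR7 replicate 4 was left out. They went to 1 without TLR7 replicate 3, and rose to 17 and 18 without TLR7 replicates 1 and 2. Over all genes the calls went from 180 to between 0 and 49 without 1 TLR2 library. Those without TLR7 replicates 4 and 3 were 31 and 118, and without TLR7 replicates 1 and 2 they were 531 and 629.

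**Figure D4:**
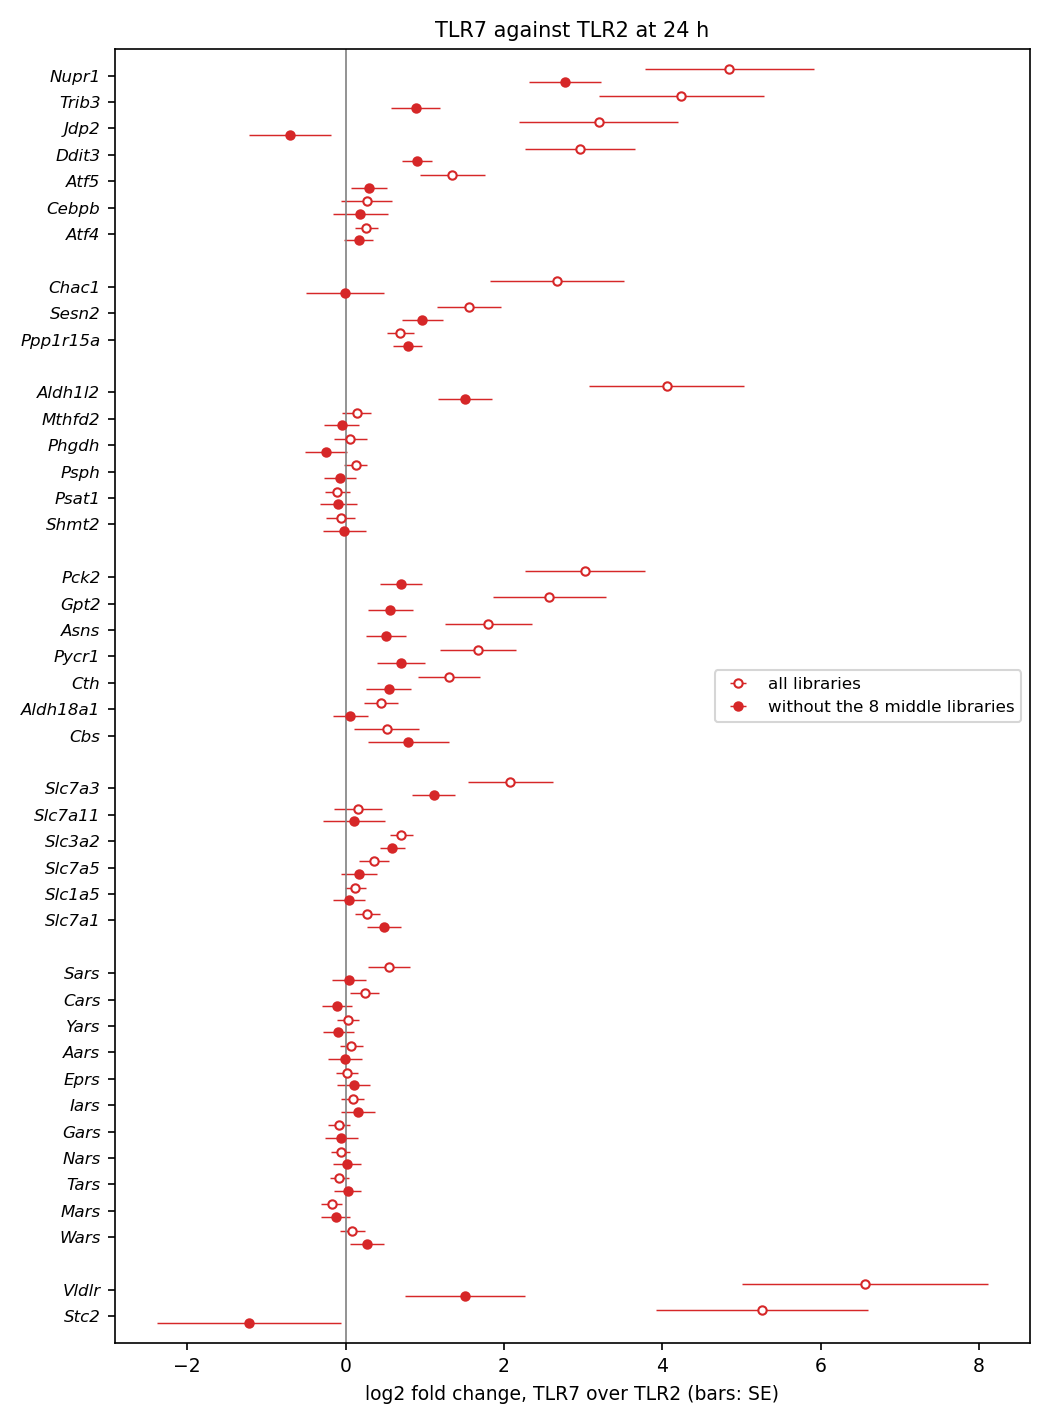
Log2 fold change of TLR7 over TLR2 at 24 h (horizontal axis) of each of the 42 genes, with bars for the SE, from all libraries (open) and without the 8 middle libraries (filled). Nupr1, Aldh1l2 and Ddit3 lie to the right of 0 in both, as do Vldlr, Slc7a3, Sesn2, Trib3 and other members. Jdp2, Chac1 and Stc2 are among those to the right only with all libraries.

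Against OVA at 24 h, no member was called with either agonist by edgeR. For TLR2 the background was 0% higher and 0% lower, and 19 members had an unadjusted p under 0.05. DESeq2 called 12 members, all lower, among 345 of 14560 genes. Leaving out OVA replicate 2 alone gave 12 edgeR calls, among 546 of 14770 genes. The median over the members was -0.22 with all libraries and -0.0075 without the middle ones, where 0 members were called (background 0% and 0%, 1 unadjusted). For TLR7 against OVA the background was 0.151% higher and 0.0687% lower, and 3 members had an unadjusted p under 0.05. DESeq2 called 1 member, higher, among 246 of 14560 genes. Without the middle libraries 2 members were higher with TLR7, Aldh1l2 (1.84 ± 0.44, adjusted p = 0.0429) and Nupr1 (2.89 ± 0.59, adjusted p = 0.0202), and none lower (background 1.3% and 1.22%). The values behind this are 2 libraries a group: Nupr1 was at 2.46 and 1.14 CPM with TLR7 and at 0.364 and 0.0884 CPM with OVA. Both comparisons share the OVA libraries.

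At 72 h 1 member differed between agonist groups. TLR2 replicates 1, 3 and 4 and OVA replicate 4 are middle libraries there, whereas all TLR7 libraries are distinct ones. TLR2 against OVA gave no call (background 0% higher and 0% lower by edgeR), 0 members at an unadjusted p under 0.05 and 0 by DESeq2, with a median of -0.11. It again gave none when the middle libraries were left out (background 0% and 0%, 0 unadjusted). TLR7 against OVA gave no member call where 0.412% of genes were higher and 3.21% lower, with 5 members at an unadjusted p under 0.05. DESeq2 called 2 members, among 934 of 14560 genes. Leaving out OVA replicate 1 gave 3 member calls, among 1370 of 14778 genes. The count was also 0 once the middle libraries were left out (background 0.107% and 1.52%, 8 unadjusted). TLR7 against TLR2 gave 1 call, Cebpb (1.20 ± 0.32, adjusted p = 0.0385), where 0.859% of genes were higher and 3.94% lower. Cebpb stood at 5.03, 5.87, 3.32 and 5.00 CPM with TLR7 and 1.55, 2.83, 2.25 and 1.72 CPM with TLR2. The call was lost without TLR2 replicate 1, 3 or 4 and without TLR7 replicate 1, 2 or 4, and without the middle libraries the count was 0 (background 0% and 0%, 1 unadjusted). B cell markers summed to 190 ± 63.6 CPM with TLR7, 413 ± 113 with TLR2 and 562 ± 143 with OVA at 72 h (SD, n = 4), and their part in the comparisons was not tested. Of the 42 members, 13 had every TLR7 library above every TLR2 library and 4 below (12.9% and 10.7% of genes).

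The agonist effects were compared between the times with an interaction term. For TLR2 no member passed (background 0% higher and 0% lower by edgeR, and 0% and 0% without the middle libraries), with 10 members at an unadjusted p under 0.05, 0 without the middle libraries, and 0 by DESeq2. For TLR7 the count was 0 with all libraries (background 0.11% and 0.701%, 4 unadjusted, 0 by DESeq2). A single member passed without the middle libraries, Nupr1 (-3.31 ± 0.65, adjusted p = 0.0477), where 0.0506% of genes were higher and 0.234% lower. In that fit its TLR7 effect against OVA was 2.89 ± 0.59 at 24 h and -0.42 ± 0.29 at 72 h. The 24 h value rests on OVA replicates 2 and 4, at 0.364 and 0.0884 CPM, and the lowest Nupr1 count in any library was 1.

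Genes around the module were read from 7 lists of pathway neighbours, given here for OVA from 24 h to 72 h without the middle libraries, with the all-library count after each. Of all genes 26.3% rose and 22.3% fell in that fit, and 8.17% and 10.4% with all libraries. Of other ATF4 and CHOP targets, 11 rose and 0 fell of 16 (median 1.64, and 2 rose and 0 fell of 15 with all libraries). Bbc3, the cell death mediator PUMA, rose by 3.69 ± 0.71, or 2.22 ± 0.66, adjusted p = 0.0350 with all libraries, and Cebpg, an ATF4 dimer partner, by 1.18 ± 0.27, or 0.86 ± 0.25, adjusted p = 0.0341. Of the eIF2 kinases and translation controls, 3 rose and 7 fell of 16 (0 rose and 4 fell of 16). Eif2s1, the eIF2 subunit that carries the phosphorylation site, changed by -1.98 ± 0.23 and Eif2b3, a subunit of its exchange factor, by -2.26 ± 0.23, both falls. With all libraries no gene of this list rose, so the rises of kinases given next come only from the fit without the middle libraries. Among the 4 kinases Eif2ak3 (PERK) gave 2.90 ± 0.24, adjusted p = 3.89e-07, Eif2ak2 (PKR) 0.94 ± 0.31, adjusted p = 0.0206, Eif2ak1 (HRI) -0.85 ± 0.13, adjusted p = 6.38e-05 and Eif2ak4 (GCN2) -0.12 ± 0.19, adjusted p = 0.605.

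Other cytosolic tRNA synthetases and their scaffold proteins were lower at 72 h in more cases than higher: 0 rose and 7 fell of 12 (median -1.17, and 0 rose and 7 fell of 12 with all libraries), beside 2 risen and 1 fallen of 11 member synthetases (median -0.13). Hars changed by -1.64 ± 0.17 and Eef1e1, a scaffold protein, by -1.84 ± 0.23. Of the mitochondrial synthetases, 0 rose and 7 fell of 17 (0 rose and 2 fell of 17), with Yars2 at -2.08 ± 0.22 and Rars2 at -1.68 ± 0.21. In the rest of the folate and methyl cycle, 5 rose and 13 fell of 20 (1 rose and 8 fell of 20), with a median of -1.12 beside 0.52 over the 6 member enzymes. Cytosolic Shmt1, the counterpart of Shmt2, fell (log2 difference -3.17 ± 0.29), as did Gcsh of the glycine cleavage system (-2.89 ± 0.29).

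Of other amino acid transporters, 3 rose and 5 fell of 17 (2 rose and 2 fell of 17), near the shares of all genes, with Slc43a2, a large neutral amino acid carrier, at 1.90 ± 0.37, the lysosomal arginine sensor Slc38a9 at 2.29 ± 0.22, the mitochondrial ornithine carrier Slc25a15 at -1.55 ± 0.25 and Slc16a10, an aromatic amino acid carrier, at -1.62 ± 0.19. Of the glutamate, aspartate and glutathione genes, 2 rose and 13 fell of 20 (1 rose and 7 fell of 19). Glutamate dehydrogenase Glud1 was at 0.73 ± 0.20, and Prodh, which breaks proline down, at -2.13 ± 0.42, opposite to the proline-making Pycr1 (2.86 ± 0.35) and Aldh18a1 (0.89 ± 0.24). Thioredoxin reductase Txnrd1 was at -1.93 ± 0.19. Between TLR7 and TLR2 at 24 h, 3 genes of these lists passed with all libraries: the glycine transporter Slc6a9 (2.80 ± 0.66, adjusted p = 0.0401), Cdkn1a, the cell cycle inhibitor p21 (1.71 ± 0.36, adjusted p = 0.0249), and Tyms, which makes thymidylate (-1.66 ± 0.40, adjusted p = 0.0434).

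**Figure D5:**
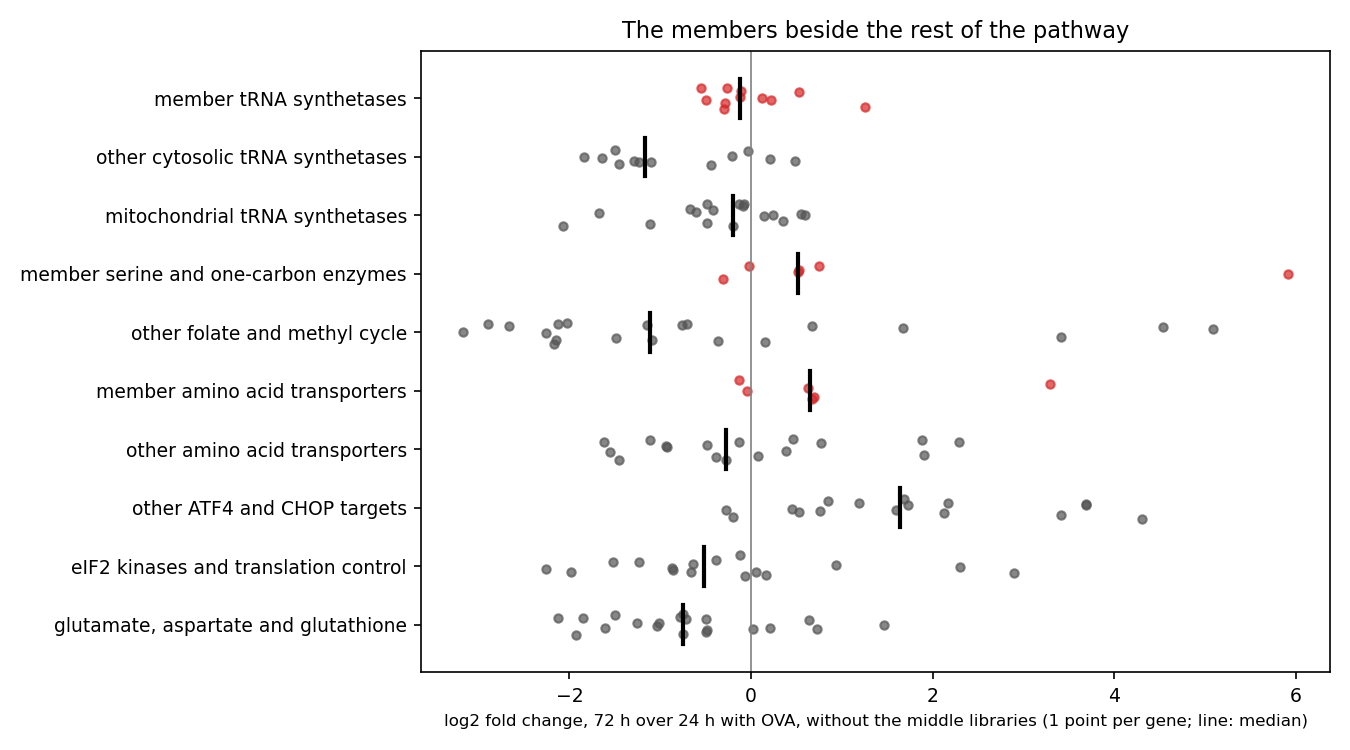
Log2 fold change from 24 h to 72 h with OVA, without the middle libraries (horizontal axis), with 1 point per gene and a black line at the median of each list. Member lists are red and neighbouring lists grey. The member tRNA synthetases centre near 0 and the other cytosolic ones near -1.17, and the member serine enzymes near 0.52 and the other folate and methyl genes near -1.12.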

How the data were processed

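Poly-A RNA was sequenced from 24 libraries. Per the submitters' processing notes, STAR, RSEM and edgeR were used with GRCm38. The sources used here do not give versions, annotation or strand setting. The deposited values are expected counts per gene, 28.7% of those above 0 not whole, and were rounded. They were scaled by TMM, filtered (filterByExpr, minimum count 10) and tested in edgeR 4.0.16 (R 4.3.3) with the quasi-likelihood F test, 1 model over all 6 groups (18 residual degrees of freedom), Benjamini-Hochberg adjustment over all 14560 genes and a threshold of 0.05. Log2 CPM used a prior count of 2, and SE is the size of the log2 fold change divided by the root of F. DESeq2 1.42.0 was an alternative, and the code was checked on simulated data. Middle libraries lie between 0.25 and 0.75 of the range of a principal component computed without members or pathway lists. The members and lists were chosen with earlier results of these data known. Named members were 14 set genes plus any past the threshold between agonists, then, per time comparison, the 3 widest called rises and falls among members averaging 5 CPM or more in 1 of the groups. Pathway genes were up to 2 rises and 2 falls a list with a mean of at least 5 CPM, and the 4 kinases were added after their values were seen. The remaining members are described by role. Promoter sequences are from RefSeq (GRCm38.p6).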

Additional observations from a re-analysis of the deposited data

Results flagged for a closer look

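In 120 sets of 4 values (the score and 19 named members in 6 groups), 10 had 1 library farther from the other 3 than Dixon's 95% critical value for 4 samples allows. Chance alone flags about 1 in 20 such groups. Of the 10, 4 were TLR2 72 h replicate 2, the only distinct library of its group: its score was 6.686 against 6.214 to 6.287 in the others, Sesn2 74.01 CPM against 40.12 to 44.45, Aldh1l2 36.24 against 12.48 to 15.43 and Vldlr 55.41 against 23.96 to 24.2. Another 3 were middle libraries: Psat1 at 470.3 CPM in TLR7 24 h replicate 3 (others 402.1 to 411), Cebpb at 1.753 CPM in OVA 72 h replicate 4 (others 2.999 to 3.198) and Ppp1r15a at 89.45 CPM in OVA 24 h replicate 1 (others 66.43 to 68.58). The remaining 3 were Slc1a5 at 292 CPM in TLR2 24 h replicate 2 (others 401 to 421.8), Slc1a5 at 522.5 CPM in TLR7 72 h replicate 4 (others 443.3 to 455.8) and Aldh1l2 at 27.4 CPM in TLR7 72 h replicate 3 (others 23.93 to 24.49). The TLR7 effect on Nupr1 differed between 72 h and 24 h by -3.312 (log2) in edgeR's interaction test without the middle libraries, and not past the threshold with all libraries.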

How the results depend on the processing

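The number of members called moved most with which libraries entered. The number called over all genes moved too. For TLR7 against TLR2 at 72 h it was 699 of 14560. A fit of those 2 groups only gave 3302 of 13304. For TLR7 against TLR2 at 24 h it was 180, 1016 with DESeq2 and 0 without the shallow libraries. From 24 h to 72 h with OVA it was 2709, 3963 with DESeq2 and 0 without the shallow libraries. The number of members called for TLR2 against OVA at 24 h was 0 in the main analysis, 12 with DESeq2 and 0 to 12 when 1 replicate was left out. For TLR7 against OVA at 24 h it was 0, 2 without the middle libraries and 1 with DESeq2. For TLR7 against TLR2 at 24 h it was 7, 11 with a stricter filter, 1 with the replicate number as a block, 3 without the middle libraries, 0 without the shallow ones, 18 with DESeq2 and 0 to 18 when 1 replicate was left out. For TLR7 against OVA at 72 h it was 0, 2 with DESeq2 and 0 to 3 with 1 replicate left out. For TLR7 against TLR2 at 72 h it was 1, 0 with no filter, without the middle or without the shallow libraries, 12 in a fit of those 2 groups only, 2 with DESeq2 and 0 to 1 with 1 replicate left out. From 24 h to 72 h with OVA it was 2, 1 with no scaling or with the replicate block, 25 without the middle libraries, 0 with no filter, without the shallow libraries or in a fit of those groups only, 6 with DESeq2 and 0 to 10 with 1 replicate left out (0 without OVA 24 h replicate 2 or 4 or OVA 72 h replicate 1, 2 or 3, 10 without OVA 24 h replicate 1, 4 without its replicate 3, 6 without OVA 72 h replicate 4). With TLR7 it was 15, 9 with no filter, 27 without the middle libraries, 0 without the shallow ones and 6 to 23 with 1 replicate left out (7 and 6 without TLR7 24 h replicates 1 and 2, 23 without its replicate 3, 7 without TLR7 72 h replicate 4). With TLR2 it was 23, within 1.5 times of that under each alternative run (17 to 23 with 1 replicate left out). The TLR7 difference between times went from 0 to 1 without the middle libraries. Score differences without the middle libraries were 0.009581 for TLR2 against OVA at 24 h (from -0.7108, a change of sign), 0.3379 and 0.05477 for TLR7 against TLR2 at 24 h and 72 h (from 0.9242 and 0.3417), and 1.754, 1.878 and 1.595 from 24 h to 72 h with OVA, TLR2 and TLR7 (from 0.9522, 1.534 and 0.9516). TLR2 against OVA at 72 h also changed sign (0.1344 from -0.1289), within 1 SD. With the median over members in place of the mean the time difference was 0.683 with TLR2 and 0.3715 with TLR7. The causes were not tested. Of the member calls, 17 (1 gene in 1 comparison each) were followed gene by gene through the alternatives. They were the all-library calls between agonists and the widest called rises and falls of each time comparison. These 17 kept their direction in every alternative run, 184 of the refitted values past the threshold and 104 not. The other calls between the times were not followed in this way. Of 252 member values in the 6 agonist comparisons, called or not, 62 changed sign without the middle libraries, none of them a call. Whether replicate numbers pair the samples is not known. Deviations from the group means of 60 same-numbered pairs correlated from -0.616 to 0.525 (median 0.039, 21 over 0.1). Those of 180 other pairs ran from -0.695 to 0.691 (median -0.028, 51 over 0.1). Of 24 libraries, 8 correlated best with their own number. These deviations include the split between middle and distinct libraries, so they cannot settle the pairing. Counts at 3 or below in single libraries, as for Stc2, Vldlr and Nupr1 at 24 h, limit the precision of their fold changes.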
